A study of Mus musculus with 7 samples.

Results

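The matrix metalloproteinases (Mmp genes), the ADAM and ADAMTS metalloproteinases (Adam and Adamts genes) and the tissue inhibitors of metalloproteinases (Timp genes) were read out in mouse dendritic cells grown in culture. Members were taken by symbol alone, as genes whose symbol is Mmp, Adam or Adamts followed by a digit, or begins with Timp. The reference gene table held 80 such genes, and 79 of them had a probe on the arrays, with 105 probes in all, among 20018 genes that could be named. No probe was matched to Mmp27. A probe was tested where its signal was well above background on at least 3 of the 7 arrays, which left 40 members among 14550 tested genes. The other 39 members are called dim here.

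All 7 arrays carried RNA of dendritic cells from C57BL/6 mice with floxed Gata2 alleles. The control group was Gata2(f/f) and had 4 arrays, and the group labelled Gata2 knockout was Gata2(f/f)/ER-Cre and had 3. Mice of both genotypes received tamoxifen on 6 days between day 1 and day 10, so the groups differed in the ER-Cre transgene as well as in Gata2. Common myeloid progenitors (CMPs), CD45.2+, were sorted from bone marrow on days 20 to 22 and grown on bone marrow feeder cells of SJL (CD45.1+) mice with the dendritic cell growth factor FLT3-L at 200 ng/ml. Whether replicates came from separate mice is not labelled, so p-values measure the spread between these samples, which may be technical. Removal of the feeder cells before RNA was taken is not labelled either.

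Matrix metalloproteinases are zinc proteases that cut collagens, gelatin and other proteins of the extracellular matrix. ADAMs are mostly membrane-bound and cut the outer part off surface proteins such as receptors and cytokine precursors, and ADAMTS proteins are secreted relatives that act on the matrix. TIMPs bind in the active site of these enzymes and block it. In dendritic cells, proteases of this kind are known for a part in movement through tissue and in the shedding of surface proteins.

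Values below are log2 signals relative to the 75th percentile of the same array, so that 0 is a spot as bright as that percentile and a difference of 1 is a doubling. Differences are knockout minus control as labelled, with the standard error (SE) of the fit, and adjusted p-values are from limma with Benjamini-Hochberg adjustment over all 14550 tested genes. Different probes bind with different strength, so levels were compared between arrays and not between genes. Gata2 itself had values of 2.93, 3.00 and 3.06 on the arrays labelled knockout and -0.25, 0.24, 0.36 and 0.34 on the control arrays, a difference of 2.82 (SE 0.17, adjusted p = 0.000153, limma), or 7.08-fold higher signal under the knockout label. The place of this probe relative to the deleted part of the gene is not known here, so it does not check the labels, and every direction below is that of the arrays as labelled.

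The arrays labelled knockout had the lower background. Between 61.5% and 67.4% of their spots were well above background, against 54.1% to 56.9% on the control arrays, and the dimmest spot still well above background lay at -6.65 ± 0.38 (SD, n = 3) against -5.51 ± 0.13 (SD, n = 4). The negative control spots differed in the same way, at -8.78 ± 0.41 (SD, n = 3) against -7.59 ± 0.14 (SD, n = 4). All arrays shared 1 slide, on which each group filled a row of its own, so slide row and genotype cannot be told apart. Of the 13 dendritic cell markers looked at, 12 were tested and none passed the threshold, while Xcr1 was dim. Mast cell and basophil markers had a summed linear level of 0.767 to 1.05 on the knockout arrays and 9.79 to 21.7 on the control arrays (8 of 9 tested, 6 lower), and natural killer cell markers of 10.8 to 13.5 and 2.90 to 3.57 (4 of 6 tested, 3 higher). T cell markers had 7.01 to 8.01 and 3.70 to 3.90 (8 of 8 tested, 3 higher), and megakaryocyte and platelet markers 25.9 to 31.9 and 44.3 to 69.8 (5 of 5 tested, 3 lower). In such sums the brightest markers weigh most. The higher T cell markers were Lck, Tcf7 and Gata3, while Cd3d (0.01), Cd3e (-0.05), Cd3g (0.72), Cd4 (0.05) and Cd8a (-0.20) did not pass. The higher natural killer cell markers were Nkg7, Gzma and Eomes. Prf1 differed by -0.16 and did not pass, and Ncr1 and Klrb1c were dim.

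More of the metalloproteinase and inhibitor genes gave a measurable signal under the knockout label. Of the 79 members, 31, 31, 29 and 29 were well above background on the control arrays, and 40, 50 and 48 on the knockout arrays. No control array reached the count of any knockout array. Over all named genes the shares were 67.0% to 69.0% on control and 72.4% to 76.7% on knockout arrays, while over the members they were 36.7% to 39.2% and 50.6% to 63.3%. The part of the lower background of the knockout arrays in these counts was not tested. Of the 40 tested members, 39 were well above background on all 3 knockout arrays and 7 on no control array. The filter on 3 of 7 arrays admits a gene through the knockout arrays alone, so these counts describe the tested set and support nothing about the direction.

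**Figure D1:**
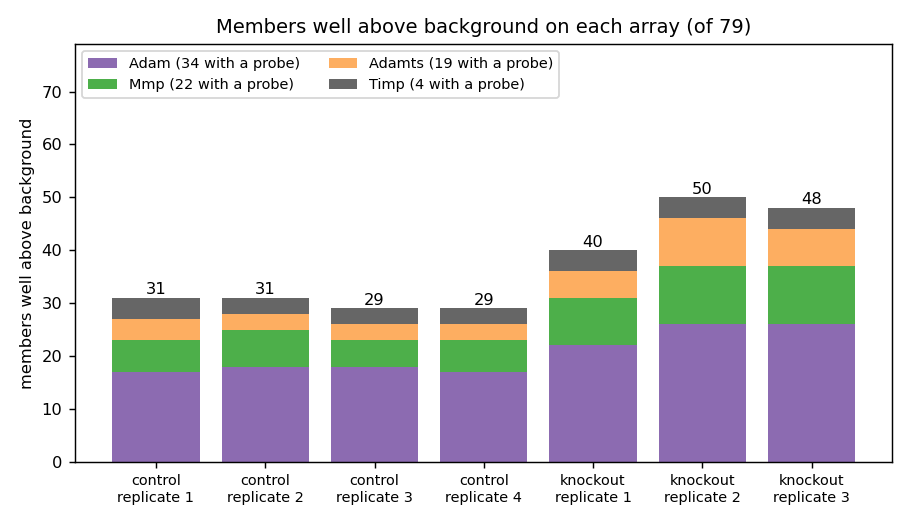
Number of the 79 metalloproteinase and inhibitor genes on the arrays whose signal was well above background, 1 bar per array (4 control, 3 knockout), stacked by family with the total on top. The control bars reach 29 to 31 and the knockout bars 40 to 50, and the Adam segment runs from 17 to 18 on control and from 22 to 26 on knockout arrays.

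In the test of each gene, 5 members passed an adjusted p of 0.05 and 35 did not. Mmp2 and Adam3 were higher on the arrays labelled knockout, and Timp3, Mmp8 and Mmp19 were lower. Over all tested genes, 2.87% passed the threshold, 1.49% higher and 1.38% lower. The median difference of the tested members was -0.01, beside -0.05 over all tested genes, and the median size of the difference was 0.27 beside 0.18. Groups did not overlap for 11 members, the 5 called and 6 others, against 13.8% of all tested genes. By family, 2 of 9 tested Mmp genes were lower and 1 was higher, 1 of 22 tested Adam genes was higher, none of 5 tested Adamts genes passed, and 1 of 4 Timp genes was lower. Among the 26 members well above background on all 7 arrays, 3 were lower and 0 higher, so both higher calls are of genes that the control arrays did not measure above background.

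**Figure D2:**
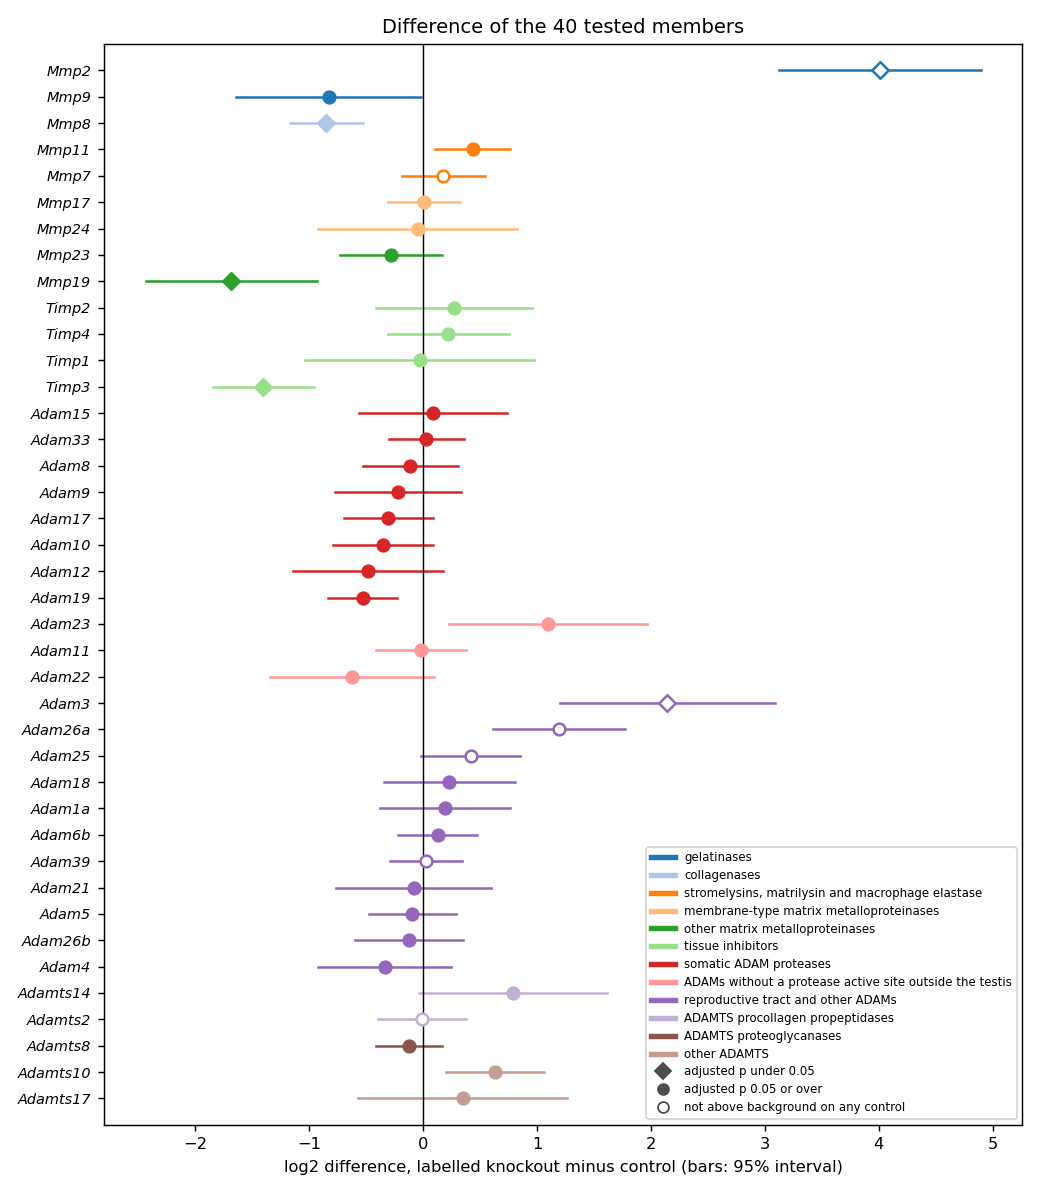
Difference in log2 signal (knockout minus control) of each of the 40 tested members, grouped and coloured by role, with bars for the 95% confidence interval of the fit over 3 knockout and 4 control arrays; diamonds passed the threshold, and open symbols were not above background on any control array. Mmp2 stands at 4.01 and Adam3 at 2.14, both open, while the lower diamonds Mmp19 at -1.69, Timp3 at -1.40 and Mmp8 at -0.85 are filled.

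The gelatinases cut denatured collagen and the type IV collagen of basement membranes, and both were tested. Mmp2 had the largest difference of any member. Its values were -3.30, -2.13 and -3.35 on the knockout arrays and -6.83, -6.20, -7.44 and -7.29 on the control arrays. Every knockout array was above every control array, and the probe was well above background on 3 of 3 knockout and 0 of 4 control arrays. The difference was 4.01 (SE 0.38, adjusted p = 0.00108, limma). Since the control arrays give only a bound, Mmp2 signal was at least 5.99-fold higher, taken against the dimmest spot well above background on each control array. In every alternative in which it was tested, the difference lay between 2.08 and 4.26 and passed the threshold.

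Stromal cells are a known source of Mmp2, and the cultures held feeder cells. The 11 stromal markers looked at had a summed linear level of 1.86 to 3.55 on the knockout arrays and 1.37 to 1.98 on the control arrays. Of these markers 5 were tested and 0 passed the threshold, with a median difference of 0.47. Pdgfrb differed by 0.69, Col1a2 by 0.59, Thy1 by 0.47, Lepr by 0.04 and Col3a1 by -1.03. Col1a1, Pdgfra, Cxcl12, Dcn and Lum were well above background on no array. The part of feeder cells in the Mmp2 difference was not tested. In a culture measured in bulk, fewer or more cells of a type and less or more RNA per cell cannot be told apart.

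Mmp9, the other gelatinase, did not pass. It had -6.14, -6.37 and -7.32 on the knockout arrays and -6.45, -5.89, -5.51 and -5.28 on the control arrays, and the groups overlapped. It was well above background on 2 knockout arrays and 1 control array, near the limit of detection throughout. The difference was -0.83 (SE 0.35, adjusted p = 0.359, limma). Over the alternatives it ran from -1.22 with array weights to -0.01 with a common floor.

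**Figure D3:**
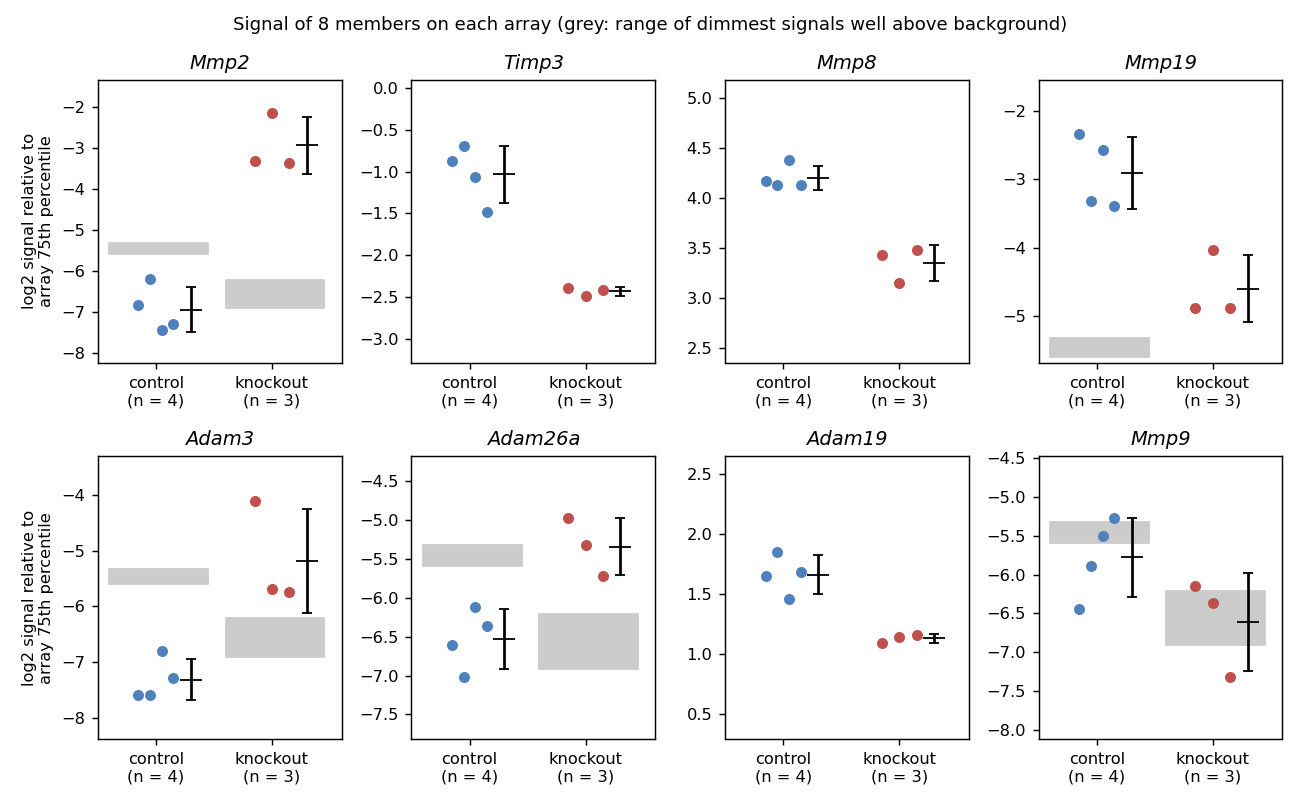
Log2 signal relative to the array's 75th percentile for 8 members, 1 point per array (4 control, 3 knockout), with the group mean and SD as a black bar beside the points and a grey band for the range of the dimmest signals well above background in that group; each panel has its own vertical scale. The control points of Mmp2, Adam3 and Adam26a lie below the grey band of their group, while Timp3, Mmp8 and Mmp19 lie above it on all arrays and lower in the knockout group.

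Timp3, the inhibitor that stays bound to the matrix and blocks ADAM17 and several ADAMTS enzymes as well as matrix metalloproteinases, was lower on the knockout arrays. Its values were -2.39, -2.49 and -2.42 there and -0.87, -0.70, -1.07 and -1.48 on the control arrays. The knockout arrays lay within a narrow band below all 4 control arrays, and the probe was well above background on all 7. The difference was -1.40 (SE 0.19, adjusted p = 0.00679, limma), 2.65-fold lower. It passed the threshold in all 22 alternatives, with an adjusted p of 0.00118 to 0.0358.

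The 250 bases before the RefSeq start of Timp3 are shown because it was the most stable of the lower members, on GRCm38.p6, plus strand, chr10:86300162-86300411, 5′ to 3′. Capitals mark a TATAA box at -44 to -40 from the start and a GGGCGG box, which binds Sp family factors, on the other strand at -15 to -10.
Timp3: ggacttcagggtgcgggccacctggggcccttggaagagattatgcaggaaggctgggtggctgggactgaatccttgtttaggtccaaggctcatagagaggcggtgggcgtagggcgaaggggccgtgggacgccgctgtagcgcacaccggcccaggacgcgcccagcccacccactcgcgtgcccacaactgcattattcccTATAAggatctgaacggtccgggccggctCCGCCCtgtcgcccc
In the RefSeq table the letters TATAA were found on either strand in 22.8% and GGGCGG in 32.7% of all 32851 promoter windows of this length. The letters GATA, the core bound by GATA factors, were searched on both strands and found in 53.6% of all windows, and they are not in this one. A match or its absence describes these letters only. For the called members Mmp2, Mmp19 and Adam3 no window was at hand, so they were not searched.

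The other 3 inhibitors did not pass the threshold. Timp1, a secreted inhibitor, had -4.14, -5.29 and -4.39 on the knockout arrays and -4.56, -3.91, -4.17 and -5.65 on the control arrays, with a difference of -0.03 (95% confidence interval -1.04 to 0.98, adjusted p = 0.986, limma). The sign of that difference turned under several scalings, so no direction can be given for Timp1. Timp2, which with MMP14 takes part in the activation of pro-MMP2, had -1.55, -2.31 and -0.94 against -1.82, -1.60, -2.03 and -2.01. Its knockout arrays lay on both sides of the control arrays, and the difference was 0.27 (95% confidence interval -0.42 to 0.95, adjusted p = 0.762, limma). Timp4 was well above background on 2 of 4 control arrays and had a difference of 0.22 (95% confidence interval -0.31 to 0.75, adjusted p = 0.745, limma), which turned to -0.19 with another background correction. Of the 4 inhibitors, Timp3 alone passed, and the test of 1 inhibitor against another was not run.

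The collagenases start the breakdown of fibrillar collagen. Mmp8, the collagenase that neutrophils store in granules, was the single tested one. Its values were 3.44, 3.15 and 3.48 on the knockout arrays and 4.18, 4.13, 4.39 and 4.13 on the control arrays. The groups did not overlap, and the probe was bright on all 7 arrays. The difference was -0.85 (SE 0.14, adjusted p = 0.0158, limma), 1.80-fold lower. Without knockout replicate 1, knockout replicate 3 or control replicate 3 the adjusted p was 0.0513, 0.0536 and 0.0509, so the call rests on each of these arrays.

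Markers of neutrophils had a negative median difference too. All 10 were tested and 2 were lower, with a median difference of -1.45 and a summed linear level of 110 to 156 on the knockout and 157 to 179 on the control arrays. The lower ones were Elane, neutrophil elastase, at 2.17, 1.57 and 1.82 on the knockout arrays and 2.59, 2.63, 2.84 and 2.78 on the control arrays, and Prtn3, proteinase 3, at 3.43, 2.83 and 3.22 against 4.07, 3.89, 4.21 and 4.30. The groups did not overlap for either. S100a8, a granulocyte calcium-binding protein, had -0.18, -3.17 and -3.34 on the knockout arrays and -0.40, 0.56, -0.06 and -0.18 on the control arrays and did not pass, with knockout replicate 1 among the control arrays. The differences of the 10 markers ran from -3.65 for Ngp to 0.40 for Cxcr2. The part of neutrophil RNA in the Mmp8 difference was not tested.

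Mmp8 lies in a run of 10 neighbouring genes of its family, in the order Mmp13, Mmp12, Mmp1b, Mmp3, Mmp1a, Mmp10, Mmp8, Mmp27, Mmp20 and Mmp7. Only Mmp8 and Mmp7 of these were tested. Mmp7, matrilysin, was well above background on no control array and had a difference of 0.18 (SE 0.16, adjusted p = 0.693, limma). The window before the Mmp8 start is shown because it is the one called gene of this run, on GRCm38.p6, plus strand, chr9:7558179-7558428, 5′ to 3′, with no capitals because none of the motifs searched (the 3 named for Timp3 and the AP-1 site described next) was found in it on either strand.
Mmp8: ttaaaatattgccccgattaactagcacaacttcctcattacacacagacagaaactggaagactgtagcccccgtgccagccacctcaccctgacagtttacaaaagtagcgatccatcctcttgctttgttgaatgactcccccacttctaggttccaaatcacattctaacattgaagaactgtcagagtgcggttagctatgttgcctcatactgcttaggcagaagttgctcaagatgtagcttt

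The letters TGAGTCA, the site of the AP-1 factors Fos and Jun, were found in the windows of several neighbours of Mmp8. They occurred on either strand in 9 of 55 windows of the members (16.4%), against 4.46% of all windows. These windows belong to 9 members, and 7 of those lie in this run on chromosome 9. Of the 9 members, 7 were dim on these arrays, and the other 2, Mmp7 and Adam19, did not pass the threshold. Stretches around the site are shown for the genes of the run, 5′ to 3′ on the strand of the gene and on GRCm38.p6, with the site in capitals and its mirror TGACTCA where it lies on the other strand.
Mmp13 (plus strand, chr9:7272469-7272495): cccaaagtggTGACTCAtcactatcat
Mmp12 (plus strand, chr9:7347320-7347346): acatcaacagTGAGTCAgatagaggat
Mmp1b (minus strand, chr9:7388103-7388129): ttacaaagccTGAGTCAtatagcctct
Mmp3 (plus strand, chr9:7445766-7445792): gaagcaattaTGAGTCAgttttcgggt
Mmp1a (plus strand, chr9:7464058-7464084): ttgtcaaccaTGAGTCAcatagcctct
Mmp10 (plus strand, chr9:7502269-7502295): agcacccatgTGAGTCAtgcttagtga
Mmp7 (plus strand, chr9:7692017-7692043): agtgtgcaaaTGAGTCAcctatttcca
The site starts between 93 and 35 bases before the gene's start in all 7. Of these 7 genes, Mmp7 alone was measured above background on 3 or more arrays.

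Mmp19, a soluble metalloproteinase of broad specificity that also acts on basement membrane proteins, was lower on the knockout arrays. Its values were -4.87, -4.03 and -4.88 there and -2.34, -3.32, -2.58 and -3.40 on the control arrays. The groups did not overlap, with a gap between knockout replicate 2 and control replicate 4, and the probe was well above background on all 7. The difference was -1.69 (SE 0.33, adjusted p = 0.0339, limma), 3.22-fold lower. The call was lost without knockout replicate 1 (0.131), knockout replicate 3 (0.153), control replicate 1 (0.0685) or control replicate 3 (0.0901), each an adjusted p from limma. The difference lay between -1.97 and -1.50 when 1 array was left out. Macrophage and monocyte markers, cells known to express Mmp19, had a summed linear level of 50.1 to 61.6 on the knockout and 69.3 to 85.2 on the control arrays (8 of 10 on the arrays, 7 tested, 3 lower). Their part in the Mmp19 difference was not tested.

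The remaining tested matrix metalloproteinases did not pass. Mmp11, stromelysin 3, had -0.54, -0.59 and -0.70 on the knockout arrays and -0.997, -0.84, -1.30 and -1.04 on the control arrays. Its groups did not overlap, and the difference was 0.44 (SE 0.14, adjusted p = 0.215, limma). Mmp17, a membrane-type enzyme held by a lipid anchor, differed by 0.01 (95% confidence interval -0.30 to 0.33), and Mmp24, another membrane-type enzyme, by -0.05 (95% confidence interval -0.93 to 0.83). Mmp23 differed by -0.28 (95% confidence interval -0.73 to 0.17). The Mmp24 probe was well above background on 1 control array, and its values ran from -6.23 to -4.62.

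Of the ADAMs with a working protease outside the testis, 8 of 9 were tested and none passed. Adam19, a sheddase of neuregulins that is also known from dendritic cells, came closest. Its values were 1.09, 1.15 and 1.16 on the knockout arrays and 1.65, 1.85, 1.46 and 1.69 on the control arrays. The groups did not overlap, and the difference was -0.53 (SE 0.13, adjusted p = 0.0937, limma). The call was made without a filter on dim probes (0.0403) and with weighted arrays (0.0247), and in no other alternative.

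The ADAMs best known for shedding in leukocytes did not pass, and their signal was above background on all 7 arrays. Adam10, which cuts Notch receptors and CD23, had 4.11, 4.51 and 3.86 on the knockout arrays and 4.45, 4.79, 4.53 and 4.29 on the control arrays, with a difference of -0.35 (95% confidence interval -0.79 to 0.09, adjusted p = 0.484, limma). Adam17, the enzyme that releases TNF and L-selectin, had -0.59, -0.39 and -0.66 against -0.37, 0.10, -0.22 and -0.49, with a difference of -0.31 (95% confidence interval -0.69 to 0.08, adjusted p = 0.496, limma). The groups overlapped for both. Adam9 differed by -0.22 (95% confidence interval -0.77 to 0.33), Adam8, a leukocyte ADAM, by -0.11 (95% confidence interval -0.53 to 0.31) and Adam15 by 0.09 (95% confidence interval -0.56 to 0.74). Each interval holds 0. Adam12 had -3.08, -3.01 and -3.38 on the knockout arrays and -2.92, -1.85, -3.02 and -2.89 on the control arrays, a difference of -0.49 (SE 0.29, adjusted p = 0.527, limma), and 2 further probes for it were dim. Adam33 differed by 0.03 (95% confidence interval -0.30 to 0.35), and Adam28 was well above background on no array.

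Adam11, Adam22 and Adam23 lack a protease active site and are known as ligands and adhesion proteins of the nervous system, and none passed. Adam23 had -3.15, -3.57 and -2.76 on the knockout arrays and -3.69, -3.65, -5.07 and -4.62 on the control arrays. Its groups did not overlap, by a narrow margin between knockout replicate 2 and control replicate 2, and the difference was 1.10 (SE 0.38, adjusted p = 0.236, limma). Adam22 differed the other way, by -0.63 (SE 0.31, adjusted p = 0.445, limma). Control replicate 4 at -3.98 lay below all of its knockout arrays, and without that array the difference was -0.92 (adjusted p = 0.0361, limma). Adam22 passed in no other alternative, and leaving out another array gave adjusted p-values up to 0.851 (limma). For Adam11 the probe read here differed by -0.02, and a second tested probe for it by 0.73 (adjusted p = 0.0444 in the fit over all probes, limma), so the 2 probes disagree.

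Most ADAMs known from sperm and the reproductive tract were at or near background: 11 of 22 were tested and 1 of them passed. Adam3, cyritestin, an ADAM needed on sperm for fertilisation, had -4.09, -5.69 and -5.74 on the knockout arrays and -7.59, -7.59, -6.80 and -7.28 on the control arrays. Every knockout array was above every control array, with knockout replicate 1 well above the other two, and the probe was well above background on no control array. The probe entered the test through the knockout arrays alone, so the control values give only a bound. The difference was 2.14 (SE 0.41, adjusted p = 0.0327, limma), but against the dimmest spot well above background the bound was at least 1.26-fold. Knockout replicates 2 and 3 lay below the dimmest such spot of every control array (-5.59 to -5.32), so the bound rests on knockout replicate 1. A second Adam3 probe was dim on all arrays, with a difference of -0.42. The call was lost when low signals were set to a common floor, where the difference was 0.41 (adjusted p = 0.625, limma), or to each array's own floor, where it was 0.34 (adjusted p = 0.731, limma), and with normexp background correction, where it was 0.58 (adjusted p = 0.297, limma).

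Adam3 lies in a run of ADAM genes with Adam18, Adam5, Adam32 and Adam9. Of these Adam18 differed by 0.23, Adam5 by -0.10 and Adam9 by -0.22, none past the threshold, and Adam32 was dim. Adam26a, of another run of reproductive ADAMs, had -4.97, -5.33 and -5.72 on the knockout arrays and -6.60, -7.02, -6.12 and -6.36 on the control arrays. It was well above background on no control array, so its control values give only a bound, and knockout replicate 3 lay below the dimmest spot well above background of every control array. The difference was 1.19 (SE 0.25, adjusted p = 0.0500377, limma), just outside the threshold, and at least 1.13-fold as a bound. With a common floor it was 0.12 (adjusted p = 0.669, limma), and with a floor set per array it was 0.17 (adjusted p = 0.729, limma). Its second probe was dim with a difference of -1.15. Adam25, a reproductive ADAM of a different run, differed by 0.42 (SE 0.19, adjusted p = 0.396, limma). It was well above background on no control array. Its knockout values of -6.07, -5.76 and -6.12 lay below the dimmest spot well above background of every control array, so no bound can be given. The differences of the other reproductive ADAMs that did not pass ran from -0.34 for Adam4 to 0.23 for Adam18.

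None of the 5 tested ADAMTS genes passed. Adamts10, which acts on fibrillin microfibrils, had -2.46, -2.52 and -2.76 on the knockout arrays and -3.19, -3.64, -2.99 and -3.02 on the control arrays. The groups did not overlap, and the difference was 0.63 (SE 0.19, adjusted p = 0.163, limma). The procollagen propeptidase Adamts14 differed by 0.79 (SE 0.36, adjusted p = 0.398, limma) and was well above background on 1 control array. Its relative Adamts2 differed by -0.01 and was above background on no control array. Adamts8, the only proteoglycanase of 7 to be tested, differed by -0.13 (95% confidence interval -0.42 to 0.16), and Adamts17 by 0.35 (95% confidence interval -0.57 to 1.27).

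The dim members give only upper bounds. Of the 39, 26 were well above background on no array. These were Adam2, Adam6a, Adam20, Adam28, Adam34 and Adam34l among the ADAMs, and Mmp1a, Mmp1b, Mmp3, Mmp10, Mmp13, Mmp15, Mmp16, Mmp20, Mmp21 and Mmp25 among the matrix metalloproteinases. The rest of them were the ADAMTS genes Adamts1, Adamts3, Adamts4, Adamts6, Adamts7, Adamts9, Adamts15, Adamts16, Adamts19 and Adamts20. Adamts4 is a main aggrecan-cutting enzyme. The other 13 were above background on 1 or 2 arrays of a group. For 10 of these the arrays were knockout arrays only: 2 arrays each for Mmp12, Adam1b, Adam7, Adam30, Adam32, Adamts13 and Adamts18, and 1 array each for Mmp14, Adamts5 and Adamts12. Adam24 and Adam29 were above background on 1 control array each. For Mmp28, 1 probe was above background on 1 control array alone and another on 2 knockout arrays alone.

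Mmp12, macrophage elastase, and Mmp14, the membrane-type enzyme that activates pro-MMP2, were among these dim genes. The brighter Mmp12 probe had -6.63, -5.51 and -6.29 on the knockout arrays and -5.79, -6.99, -5.80 and -5.92 on the control arrays, with overlapping groups. Mmp14 had -7.57, -7.36 and -5.40 against -6.42, -7.15, -5.65 and -7.43, also overlapping, and was above background on knockout replicate 3 alone. Over all 48 probes of the dim members, 41 had a negative difference, with a median of -0.87, beside a difference of -1.19 in the negative control spots. Dim probes of tested members are not counted here. When all probes were tested without a filter, 13 dim members were called lower and 0 higher, with differences from -1.23 to -0.77. The difference of the negative controls lies within that range, and these calls carry no level of the genes.

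Genes that act on or are cut by these proteases were taken as 3 lists, to be read beside the 2.87% called over all tested genes. Of 33 activators, chaperones and other regulators, 32 were on the arrays and 21 tested, 1 higher and 0 lower, with a median difference of -0.08. The one call was Adamtsl2, an ADAMTS-like matrix protein without a protease domain. It had -3.60, -3.59 and -3.30 on the knockout arrays and -5.64, -5.30, -5.27 and -4.79 on the control arrays. The groups lay far apart, although the probe was above background on only 2 of 4 control arrays, and the difference was 1.75 (SE 0.20, adjusted p = 0.00296, limma), 3.37-fold higher. Lcn2, the lipocalin that binds MMP9, had -0.74, -2.55 and -3.46 against -0.04, -0.47, -0.37 and -0.30, with a difference of -1.96 (adjusted p = 0.136, limma). Without knockout replicate 1 the Lcn2 difference was -2.71 (adjusted p = 0.00314, limma). That was the lowest of the adjusted p-values on leaving out 1 array, which reached 0.350 (limma), with differences up to -1.35.

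Among 30 surface proteins known to be shed, 24 were tested, 0 were higher and 1 was lower, with a median difference of -0.14. Tnfrsf1b, the second TNF receptor, which ADAM17 sheds, had 0.35, 0.46 and 0.41 on the knockout arrays and 1.71, 1.96, 2.10 and 1.53 on the control arrays. The groups were well separated, with a difference of -1.42 (SE 0.16, adjusted p = 0.00279, limma), 2.67-fold lower. Of 20 matrix substrates 13 were tested, 0 higher and 1 lower, with a median difference of 0.06. Fn1, fibronectin, had 0.82, 0.76 and 0.02 against 1.49, 2.06, 1.75 and 1.604, with a difference of -1.20 (SE 0.23, adjusted p = 0.0339, limma), 2.29-fold lower. The Fn1 call was lost on leaving out any 1 of the 7 arrays, with adjusted p-values from 0.0538 to 0.0892 (limma).

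The 5 calls differed in how far they depended on the processing. Timp3 passed in all 22 alternatives, and Mmp2 in all 17 in which it was tested. Mmp8, Mmp19 and Adam3 lost the call in 1 or more of them. Mmp2 and Adam3 are not tested when a knockout array is left out or when both groups must be above background. The control arrays measure no level for either gene.

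**Figure D4:**
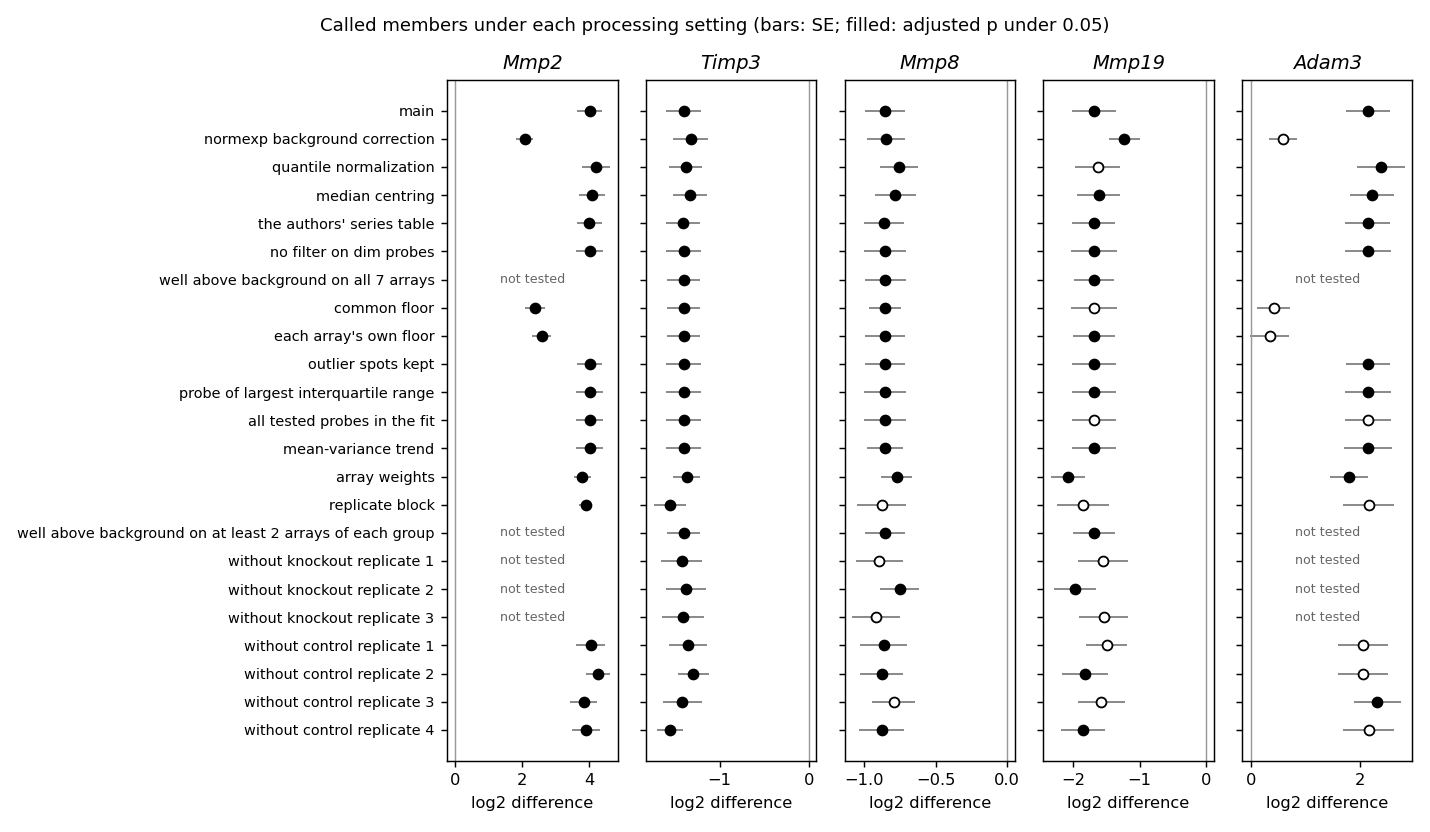
Difference in log2 signal (knockout minus control) of the 5 called members under the reported setting (top row, main) and each alternative, with bars for the SE and filled points where the adjusted p was under 0.05. Timp3 is filled throughout between -1.56 and -1.29, Mmp2 spans 2.08 to 4.26, and Adam3 comes down to 0.34 with a floor on low signals.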

How the data were processed

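RNA of 7 dendritic cell samples was amplified, labelled with Cy3 and hybridised to one-colour Agilent arrays of 62976 spots, per the labels' protocols. The deposited files are scanner output, made per the file headers with Agilent Feature Extraction 10.7.3.1, and hold the background-corrected intensity of each spot in linear units with flags for spots well above background. The authors' series table holds log2 values, which were used as an alternative; its scaling and centring are not stated, but differences between arrays matched the scanner values and its column medians lay between -0.02 and 0.

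From the intensities, control spots (3671) and outlier spots were removed, log2 was taken and each array's 75th percentile subtracted; spots of a probe were averaged. Signal gives no depth; the number of arrays limits the precision. A probe was well above background on an array where at least 0.5 of its spots were, and it was tested where this held on 3 of 7 arrays (34133 of 55681 probes). Genes were named through RefSeq accessions only (26413 probes, 47.4%), since the files used here have no column of gene symbols. Each gene was read from its tested probe of highest mean signal. Groups were compared with limma 3.58.1 in R 4.3.3 (lmFit, eBayes, no covariate; 5 residual degrees of freedom), called at a Benjamini-Hochberg adjusted p under 0.05. An "at least" fold takes, on each array of the dim group, the higher of the probe's signal and the dimmest spot well above background. The fit was tested on simulated data.

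Named are all called members, 17 preselected ones, the 8 not past the threshold with the largest difference, dim members by name, and genes of 3 lists (regulators, shed surface proteins, matrix substrates); Adam25, Mmp7 and the other members given with a difference were added after their values were seen. Members, lists and tests were chosen with earlier results of these data known. Alternatives were normexp background correction (on the median signal, as no mean signal column is in the files), quantile and median scaling, the series table, other filters, floors, outlier spots kept, other probe rules, a mean-variance trend, array weights, a replicate block and leaving out each array. Promoter windows are from RefSeq on GRCm38.p6, with 50 members matched, 24 of them tested. The 50 include Mmp27, which has no probe, and of the called members only Timp3 and Mmp8. The arrays' own annotation is of mm9, so no gene coordinates are given.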

Additional observations from a re-analysis of the deposited data

Results flagged for a closer look

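For 21 members the 4 control arrays were checked for a sample far from the rest, and the knockout group was not checked. A control sample stood apart for 2 of the members, and chance alone flags about 5% of such groups. Mmp8 was 4.39 in control replicate 3 against 4.13 to 4.18 in the other control arrays, and the sample lay away from the knockout arrays. Adam12 was -1.85 in control replicate 2 against -3.02 to -2.89 in the others.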

How the results depend on the processing

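The reported setting called 217 genes higher and 201 lower, and 2 members higher and 3 lower. Without a filter on dim probes 365 genes were higher and 2483 lower, with 17 members lower. Array weights gave 699 and 822 genes and 4 members higher; the weights ran from 0.40 for knockout replicate 2 to 4.05 for knockout replicate 3. Each array's own floor gave 310 genes lower. Members higher were 1 with normexp, the common floor, each array's own floor or all tested probes in the fit. In the last, only the probe read here was counted for each gene, so the second Adam11 probe (0.0444) is left out. Adam11 was called with the probe of largest interquartile range. Members higher were 0 with the filter on all 7 arrays or on at least 2 arrays of each group, the latter chosen after seeing the data. Neither filter tests Mmp2 or Adam3, which were above background on no control array, so their loss there was fixed in advance. Whether samples of the same number were handled together is not labelled. Correlations of same-numbered deviations were -0.10, -0.17 and -0.05, which are too few values to decide it. A replicate block gave 86 genes higher and 95 lower, 1 member higher and 1 lower. Control replicate 4 has no knockout array of its number, so the block takes it out of the comparison. The block also leaves fewer residual degrees of freedom, so calls lost with it do not measure pairing alone. Leaving out 1 array gave 88 to 224 genes higher and 105 to 178 lower, 0 to 3 members higher and 1 to 4 lower. Without a knockout array, Mmp2 and Adam3 are not tested, because 3 arrays must be above background. Knockout replicate 1 (106) and 3 (88) moved genes higher most, and knockout replicate 3 (105) and control replicate 3 (133) genes lower. Mmp8 lost its call with the block (adjusted p = 0.122, limma). Mmp19 lost it with quantile scaling (0.0505), the common floor (0.0795), all probes (0.0679) and the block (0.141). Adam3 lost it also with its own floor (0.731), all probes (0.0649), the block (0.155) and without control replicate 1, 2 or 4 (0.0756 to 0.0834). Fn1 lost it also with the common floor (0.0673), all probes (0.0686) and the block (0.131). Adam26a was called with median centring (0.0407), no filter (0.0199), array weights (0.0367) and without control replicate 3 (0.0489), Adam23 with array weights (0.0351), and Mmp9 with its own floor (-0.99, 0.0272). Signs turned in some alternatives, given here as log2 differences and not as p-values. Adam8 turned with array weights (0.0292) and Timp4 with normexp (-0.19). Timp1 turned with quantile scaling (0.0207), median centring (0.0374) and array weights (0.22). The adjusted p was at least 0.705 for Adam8, 0.668 for Timp1 and 0.407 for Timp4 in every alternative (limma). Leaving out 1 array gave log2 differences of -0.0678 to 0.39 for Adam15, -0.24 to 0.0785 for Adam8, -0.39 to 0.31 for Timp1 and -0.0621 to 0.62 for Timp2. The causes were not tested.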
